A study of Mus musculus with 6 samples.

Results

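The 10 genes described here encode the main secreted products of colonic goblet cells and the protein that folds their mucin. They are Muc2, Tff3, Clca1, Fcgbp, Zg16, Agr2, Retnlb, Spink4, Klk1 and Reg4. All 10 were found on the array by symbol, out of 18193 genes with a single symbol, and they were read by 17 probe sets, each a small group of short probes for a transcript. Colon epithelium came from vil-Cre-Bcl9-/-/Bcl9l-/- mice and from wild-type mice, to ask which genes change in healthy colon without both co-activators. BCL9 and BCL9L bind beta-catenin, which drives transcription in the Wnt pathway, and vil-Cre acts under the villin promoter of the intestinal epithelium. There were 3 knockout arrays (knockout 1, 2 and 3, from pools of 3, 2 and 2 mice) and 3 wild-type arrays (wild type 4, 5 and 6, from pools of 3 mice each). All mice were 12 weeks old, of mixed 129SvEv/C57BL/6/DBA/2 background and without a named treatment. No wild-type label mentions vil-Cre, so Cre itself, loss of the co-activators and strain alleles segregating on the mixed background cannot be told apart.

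Goblet cells store the gel-forming mucin MUC2 in large granules and release it as the mucus that separates the colonic epithelium from bacteria. Other granule proteins join, cut or coat that gel, and some bind or kill bacteria. Goblet cells arise from crypt progenitors that take the secretory fate under the transcription factor ATOH1, and Wnt signaling sustains the crypts they come from.

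BCL9 proteins act on DNA through beta-catenin and its TCF/LEF partners, so the promoters of the members were searched for the TCF/LEF core. RefSeq promoter sequences of build GRCm38.p6 were matched for 5 members, Muc2, Fcgbp, Agr2, Klk1 and Reg4. The 250 bases before the annotated start are shown for the gel-forming mucin and for Klk1 and Reg4, whose differences between genotypes had opposite signs. Capitals mark the TCF/LEF core CTTTGA, the forkhead motif TGTTTNC of FOXA factors and the TATA core TATAA, each on either strand.
Muc2, chr7:141690090-141690339, plus strand: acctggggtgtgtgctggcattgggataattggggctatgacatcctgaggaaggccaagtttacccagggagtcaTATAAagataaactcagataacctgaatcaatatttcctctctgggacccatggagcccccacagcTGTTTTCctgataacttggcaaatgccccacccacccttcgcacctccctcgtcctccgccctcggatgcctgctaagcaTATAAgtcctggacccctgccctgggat
Klk1, chr7:44225110-44225359, plus strand: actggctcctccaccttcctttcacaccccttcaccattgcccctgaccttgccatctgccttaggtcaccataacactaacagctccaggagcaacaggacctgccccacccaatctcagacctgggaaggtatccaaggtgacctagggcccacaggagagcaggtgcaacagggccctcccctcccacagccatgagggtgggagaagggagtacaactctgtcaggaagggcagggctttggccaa
Reg4, chr3:98221906-98222155, plus strand: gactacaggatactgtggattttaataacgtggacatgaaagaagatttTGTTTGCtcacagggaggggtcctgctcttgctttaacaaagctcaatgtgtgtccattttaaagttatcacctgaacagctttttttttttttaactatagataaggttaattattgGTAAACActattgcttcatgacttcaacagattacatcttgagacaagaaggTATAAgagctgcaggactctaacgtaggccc
The TCF/LEF core, searched only as CTTTGA, was in 0 of the 5 member promoters, against 13.8% of 32841 RefSeq promoter windows of this length. That says only that these letters are not in these windows. Other forms of a TCF/LEF site were not searched for, so their absence is not shown. The Reg4 window holds ACAAAG, which reads CTTTGT on the other strand. It differs from the searched letters in its last base and is left in lower case. The forkhead motif was in 3 of the 5 (Muc2, Agr2 and Reg4), against 17.8% of all windows. The TATA core was in 3 of the 5 (Muc2, Fcgbp and Reg4), against 22.8%, and it began 28 bases before the start in Muc2 and Fcgbp and 31 bases before it in Reg4.

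No member differed between genotypes by the test across the whole array. Each difference is the knockout mean less the wild-type mean of the deposited log2 values, so that a difference of 1 is a doubling, and limma tested all 45037 probe sets with Benjamini-Hochberg adjustment and a threshold of 0.05. It called 0 member probe sets higher and 0 lower (limma adjusted p = 0.991 to 0.999), and 0 of 17 had an unadjusted p under 0.05. Over the whole array 0% of probe sets were called higher and 0% lower, and 4.15% had an unadjusted p under 0.05. Without wild type 6 limma called 3 probe sets on the array, none of a member. The members' median difference, with each gene read by its probe set of highest mean, was -0.015 (4 of 10 above 0 and 6 below), beside 0.0096 over all genes. It was 0.03 without knockout 3, 0.0054 without wild type 5 and -0.03 without any 1 of the other arrays. In a bulk sample fewer goblet cells and less RNA per goblet cell cannot be told apart. The 95% interval of a member probe set extended by a median of 0.31 either side of its difference. That interval is not adjusted for the 45037 tests, so differences of that size, and larger ones, could have been missed.

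**Figure D1:**
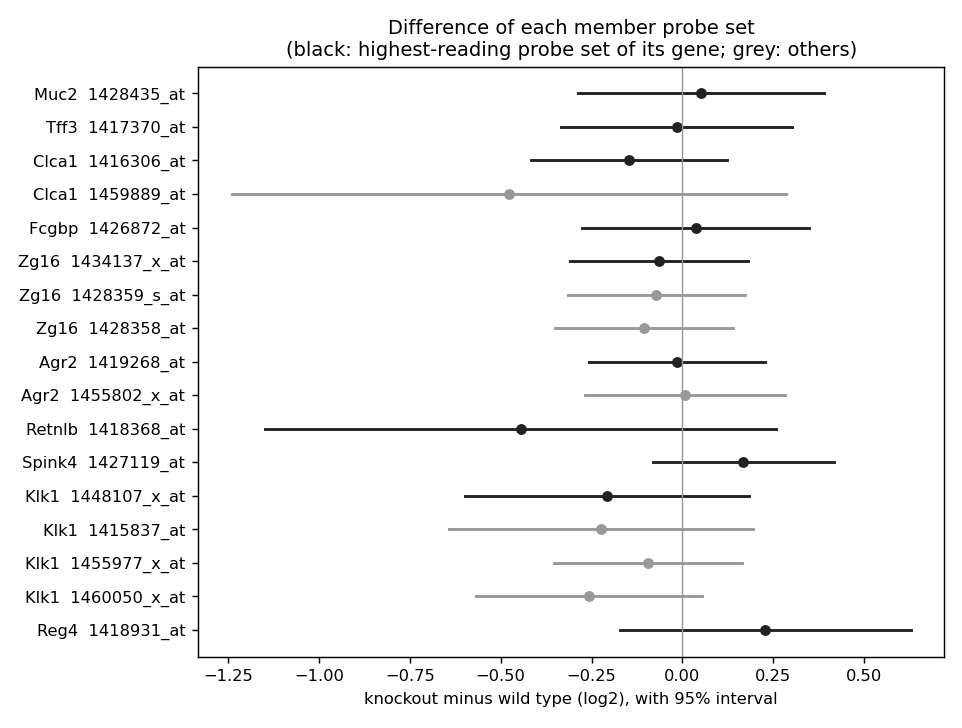
Knockout minus wild type (log2) of each of the 17 member probe sets, with limma's 95% interval as a line; black marks the highest-reading probe set of its gene and grey the others. Every interval includes 0, and the longest are those of Retnlb (-1.15 to 0.26) and of the second Clca1 probe set (-1.24 to 0.29).

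The tissue read as epithelium rich in goblet cell transcripts. All 9 epithelial markers, among them Epcam, Cdh1 and Vil1, lay above the 93rd percentile of the array, and their mean log2 level was 12.5 to 12.6 in the 6 arrays. Transcripts that mark other cells and tissues also read higher in some pools. Markers of B and plasma cells (10 of 11 measured) had a mean log2 level of 8.19 in wild type 6, 4.44 to 5.12 in the other wild types and 4.48 to 4.77 in the knockouts. Exocrine pancreas markers (5 of 7 measured) read 10.6 in wild type 5, 8.39 in wild type 6, 6.48 in wild type 4 and 6.51 to 7.35 in the knockouts. Their part in the members' values was not tested. The targeted genes did not check the labels. The brightest Bcl9 probe set differed by 0.11 (SE 0.20) and that of Bcl9l by 0.22 (SE 0.15), and the sources used here do not say whether these probes lie in the deleted parts.

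Transcripts of the gel proteins MUC2 and FCGBP showed no called difference between genotypes, and the gel itself was not measured. Muc2, the mucin whose polymers make the gel, read 12.44, 12.59 and 12.26 in knockouts 1 to 3 and 12.21, 12.52 and 12.41 in wild types 4 to 6. The groups overlapped, with knockout 2 at the top and wild type 4 at the bottom. The difference was 0.05 (95% interval -0.29 to 0.39, limma adjusted p = 0.994), which is between 0.819-fold and 1.31-fold of the wild-type level. It took the other sign without knockout 2 (-0.030) or wild type 4 (-0.034). Fcgbp, a large protein of mucin-like von Willebrand domains that is found in the MUC2 gel, read 13.47, 13.41 and 13.14 in the knockouts and 13.30, 13.38 and 13.23 in wild type. The groups overlapped, with knockout 3 lowest and knockout 1 highest. Its difference was 0.04 (95% interval -0.28 to 0.35), and -0.00016 without wild type 6.

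Agr2 and Tff3 had the differences nearest 0. Agr2, a protein disulfide isomerase of the endoplasmic reticulum that MUC2 needs to be made, was the steadiest member. Its brighter probe set read 13.40, 13.36 and 13.42 in the knockouts and 13.38, 13.43 and 13.42 in wild type, a range of 0.068 over the 6 arrays. Only 5.30% of the 264 probe sets with means above 13 had a smaller range. The differences of its pair of probe sets were -0.01 (SE 0.10) and 0.01 (SE 0.12), opposite in sign and both far smaller than their errors. Tff3, a trefoil peptide that helps epithelium reseal after injury, read 12.89, 12.76 and 12.52 in the knockouts and 12.77, 12.80 and 12.66 in wild type. The knockouts held both its highest and its lowest array, and the difference was -0.02 (95% interval -0.33 to 0.30).

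Clca1 was read by a pair of probe sets that ordered the arrays alike at their ends and differed in spread. CLCA1 is a secreted metalloprotease that cleaves MUC2 and loosens the mucus. The brighter probe set (1416306_at) read 13.49, 13.46 and 13.30 in the knockouts and 13.54, 13.63 and 13.52 in wild type, so each knockout lay below each wild type. Its difference was -0.15 (95% interval -0.42 to 0.12, limma adjusted p = 0.991), or 1.11-fold lower, and it was -0.09 without knockout 3. With pool size as a covariate, which sets knockout 1 alone against wild type, it was -0.07. The dimmer probe set (1459889_at) read 10.75, 9.97 and 9.65 in the knockouts and 10.54, 11.01 and 10.25 in wild type. Here the groups overlapped, since knockout 1 lay above wild types 4 and 6. Its difference was -0.48 (95% interval -1.24 to 0.29, limma adjusted p = 0.991), or 1.39-fold lower, and it was -0.24 without knockout 3, -0.27 without wild type 5, -0.65 without wild type 6 and -0.79 without knockout 1. Wild type 5 was highest and knockout 3 lowest in both probe sets, but the range over the arrays was 0.34 in the brighter and 1.36 in the dimmer.

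Zg16, a lectin-like protein that aggregates Gram-positive bacteria in the mucus, showed the same small sign in each of its 3 probe sets. The probe set 1428358_at, whose name lacks the _s_at or _x_at ending of probes that can read more than 1 transcript, read 13.15, 13.15 and 13.21 in the knockouts and 13.23, 13.33 and 13.27 in wild type. Each knockout lay below each wild type there and in 1428359_s_at, and in 1434137_x_at knockout 2 lay above wild type 4. The differences were -0.11 (SE 0.10), -0.07 (SE 0.10) and -0.06 (SE 0.10), all within their errors or close to them. The 3 probe sets read 1 gene and are not independent of each other.

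Retnlb varied most between arrays, with the dimmer Clca1 probe set close behind, and its groups overlapped. It encodes RELM-beta, a goblet cell protein with antibacterial activity that type 2 immune responses and gut bacteria induce. It read 13.20, 12.12 and 12.77 in the knockouts and 12.996, 13.50 and 12.93 in wild type. Knockout 2 was far below the other arrays and wild type 5 highest, while knockout 1 lay above wild types 4 and 6. Among the 532 probe sets with means between 12 and 13, 99.4% had a smaller range than the 1.38 of Retnlb. The difference was -0.45 (95% interval -1.15 to 0.26, limma adjusted p = 0.991), or 1.36-fold lower, and it was -0.16 without knockout 2, -0.27 without wild type 5, -0.55 without wild type 6 and -0.70 without knockout 1.

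**Figure D2:**
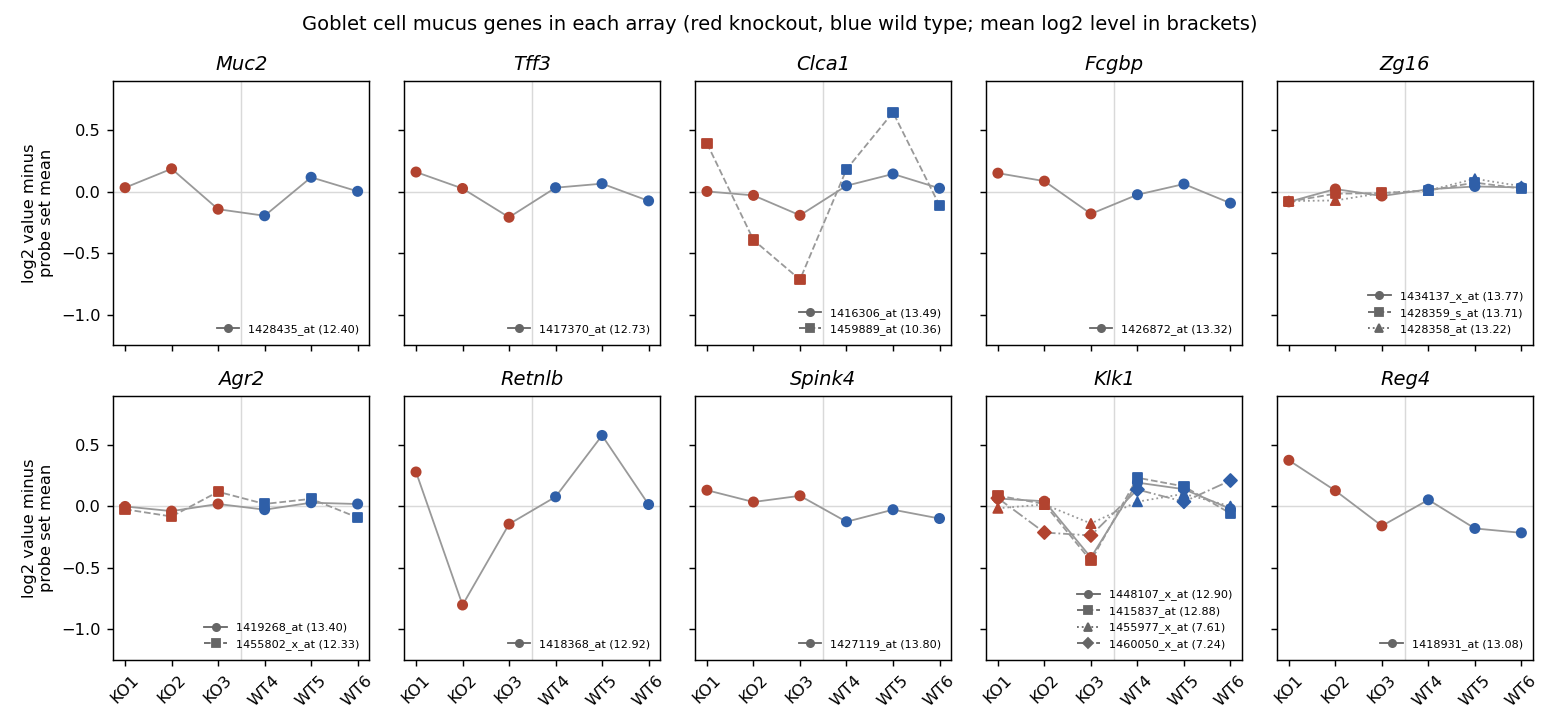
Log2 value of each member probe set in each array minus the probe set's own mean over the 6 arrays, in a panel per gene, with knockouts in red and wild types in blue; marker shapes and line styles separate probe sets, and brackets give their mean level. Retnlb and the dimmer Clca1 probe set span 1.38 and 1.36, Agr2 and Zg16 lie nearly flat, and Klk1 dips in knockout 3.

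Spink4 and Reg4 had positive differences. Spink4, a Kazal-type protease inhibitor of goblet cells, read 13.93, 13.84 and 13.89 in the knockouts and 13.67, 13.77 and 13.70 in wild type. Each knockout lay above each wild type. The difference was 0.17 (95% interval -0.08 to 0.42, limma adjusted p = 0.991), or 1.12-fold, and it stayed between 0.14 and 0.20 when any 1 array was left out. Reg4, a secreted C-type lectin of the Reg family, read 13.45, 13.21 and 12.92 in the knockouts and 13.13, 12.90 and 12.86 in wild type. Knockouts 1 and 2 lay above all wild types, and knockout 3 lay below wild type 4. Its difference was 0.23 (95% interval -0.17 to 0.63, limma adjusted p = 0.991), and it was 0.10 without knockout 1 and 0.36 without knockout 3.

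Klk1, tissue kallikrein, is a serine protease that releases kinins and is secreted by colonic goblet cells. Its probe set 1415837_at read 12.96, 12.90 and 12.43 in the knockouts and 13.11, 13.04 and 12.82 in wild type. Knockout 3 stood below all others, and the other knockouts lay among the wild types. The difference was -0.22 (95% interval -0.64 to 0.19), and it was -0.06 without knockout 3 and -0.31 without wild type 6. The 3 other probe sets end in _x_at, which marks probes that can match related sequences, and Klk1 neighbors the many similar Klk1b genes. They differed by -0.21, -0.09 and -0.26, and the last, 1460050_x_at, had the smallest unadjusted p of all members (0.0921; limma adjusted p = 0.991). All 4 probe sets were lowest in knockout 3, and 2 of them read far dimmer than the others, with means of 7.61 and 7.24.

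Separation of the groups was seen in 4 of the 17 member probe sets: 3 lower in the knockouts, of which 2 read Zg16, and 1 higher. Over the array 4.76% of probe sets were separated with knockouts lower and 4.93% with knockouts higher. Counted as genes by their brightest probe set, 2 of 10 members were separated, Clca1 lower and Spink4 higher, beside 4.83% and 5.49% of all genes. None of the 4 passed the test.

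The members stood at the top of the array's scale, where probe sets differ little between arrays. The brightest probe set of each of the 10 genes lay between the 98.8th and the 99.96th percentile of probe set means. The median range over 6 arrays was 0.67 for probe sets with means of 4 to 6, 0.27 for means of 12 to 13 and 0.17 above 13. Against that background Reg4 (range 0.59) exceeded 98.9% of probe sets above 13, and the brighter Clca1 (0.34) and Fcgbp (0.33) exceeded 87.5% and 86.7%. Whether readings so high on the scale understate differences in RNA was not tested. Clca1 is the member where a dim and a bright probe set can be set side by side without an _x_at ending. Its dimmer probe set had the wider range. In Klk1 the brighter probe sets had the wider ranges, 0.61 and 0.68, against 0.24 and 0.45 in the dim _x_at ones.

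**Figure D3:**
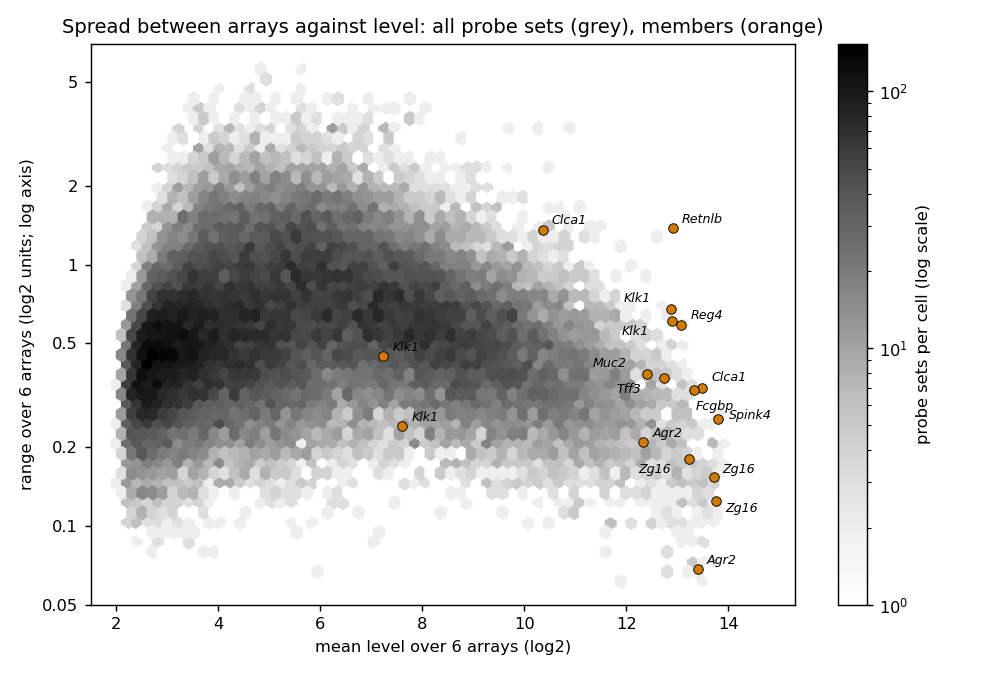
Range over the 6 arrays (log2 units, log axis) against mean log2 level for all probe sets (grey, darker where more probe sets fall) and the 17 member probe sets (orange). Retnlb and the dimmer Clca1 probe set lie at the upper edge for their level, and Agr2 at the lower edge.

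The extreme values of the members often came from the same arrays. Knockout 3 was the lowest array in 8 of 17 member probe sets, those of Tff3, Clca1, Fcgbp and Klk1, against 13.7% of all probe sets and 8.42% of the 796 with means above 12. Wild type 5 was the highest in 8 of 17, against 19.5% of all probe sets. The SD was larger among knockouts than among wild types in 14 of 17 member probe sets, against 44.7% of all probe sets, and the exceptions were single probe sets of Zg16, Agr2 and Spink4. The knockout pools also held fewer mice, and the part of pool size in this spread was not tested. The probe sets of 1 gene share their RNA, so these counts hold fewer independent values than probe sets.

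Some other goblet products, and some genes of other epithelial cells, had the array pattern of Retnlb and of the dimmer Clca1 probe set, a likeness noticed after the values were seen. Knockout 1, wild type 4 and wild type 5 were the 3 highest arrays in 5 of 17 member probe sets, which read Tff3, Clca1, Retnlb and Klk1, against 8.91% of all probe sets. The pattern was taken from Retnlb and the dimmer Clca1 probe set, which are among these 5. Klk1 was counted more than once, so the count is no test of the pattern. Among 12 measured genes for other secreted goblet products, 4 had the same 3 arrays on top: Itln1, Ang4, Clps and Tpsg1. Itln1, intelectin, a lectin for bacterial sugars, read 12.31, 11.02 and 11.48 in the knockouts and 12.40, 13.02 and 11.70 in wild type. Ang4, an antibacterial ribonuclease, read 12.98, 12.33 and 11.99 against 12.79, 13.22 and 12.13. Wild type 5 was highest in both, and the lowest was knockout 2 for Itln1 and knockout 3 for Ang4. Clps, which encodes colipase, ranged over 3.10, from 8.22 in knockout 3 to 11.32 in wild type 5. It is a product of the pancreas too, and wild type 5 is the array in which pancreas markers were highest. Those markers were lowest in knockout 1 and wild type 4, at 6.51 and 6.48, and Clps read 10.32 and 9.61 there. The source of the Clps transcripts was not tested. The same 3 arrays were on top for 3 of 10 lineage transcription factors of goblet cells and 4 of 9 enteroendocrine markers, among them Gcg. They were on top for 3 of 10 markers of absorptive colonocytes, among them Guca2a, and 3 of 8 tuft cell markers. The tuft cell markers were Trpm5, Pou2f3 and Il25. Pou2f3 and Il25 were dim, with mean levels of 2.82 and 3.34, so their order of arrays says little. Guca2a, which encodes the gut peptide guanylin, read 12.78, 12.42 and 12.02 in the knockouts and 13.05, 13.28 and 12.20 in wild type. Knockout 1, wild type 4 and wild type 5 were also on top for 4 of 20 goblet secretory machinery genes and 3 of 26 mucin glycosylation genes. They were on top for 3 of 11 other goblet markers and 2 of 9 epithelial markers. Cdx2 was counted both there and among the lineage factors. Outside the epithelium 1 of 6 mast cell markers and 1 of 5 exocrine pancreas markers had the pattern. No gene of the B and plasma cell, T cell, fibroblast, smooth muscle or macrophage lists had it. The pattern was thus seen in a minority of the genes in lists of several epithelial cell types, beside 8.91% of all probe sets.

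**Figure D4:**
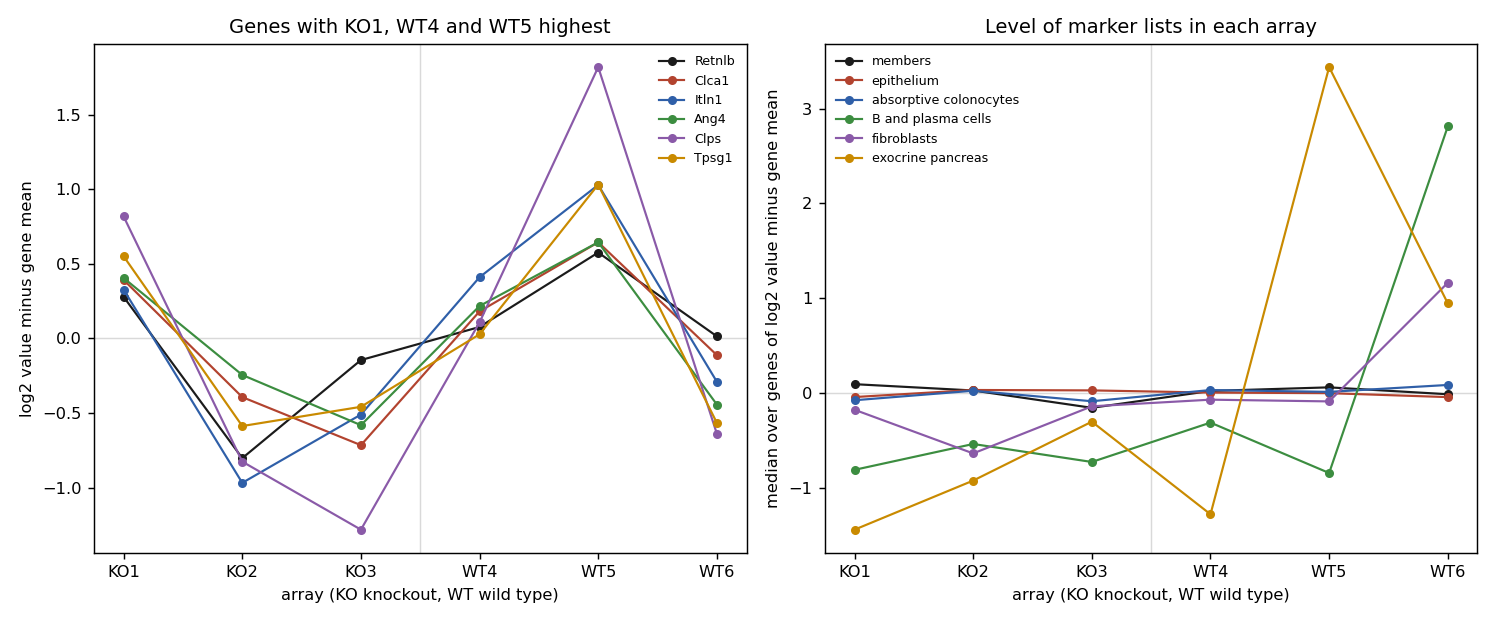
Left, log2 value minus the gene's 6-array mean for Retnlb, the dimmer Clca1 probe set and 4 other goblet products in each array. Right, the level of marker lists in each array, as the median over genes of the value minus the gene's mean: B and plasma cell markers peak in wild type 6 (2.81) and exocrine pancreas markers in wild type 5 (3.44), while members and epithelial markers stay near 0.

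The rest of the goblet program also held no called gene, and 3 of its 79 measured genes had an unadjusted p under 0.05 beside 4.18% of all genes. Of 12 measured genes for other secreted products, 0 passed in either direction, 4 were above 0 and 8 below. Their median difference was -0.23, but it was 0.00086 without wild type 5 and -0.12 without knockout 3. With pool size as a covariate, which sets knockout 1 alone against wild type, the median difference was 0.019. Wild type 5 was also the array highest in pancreas markers, and whether the median depends on them was not tested. Muc5ac, a gastric mucin, was the only one with an unadjusted p under 0.05, at 0.28 (SE 0.11, limma adjusted p = 0.991), and it was dim in both groups (means 5.58 and 5.30). Muc5b, the airway and salivary mucin, differed by 0.00 (SE 0.11) at a mean level of 5.04 in these arrays.

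Secretory machinery and glycosylation genes scattered around 0. Of 20 measured genes of folding, granule and release machinery, 14 were above 0 and 6 below, 0 passed, and the median of 0.05 became -0.0052 after cyclic loess normalization, -0.0021 without knockout 1, -0.02 without wild type 6 and 0.08 without wild type 5. Ern2, the stress sensor IRE1-beta of goblet cells, differed by 0.06 (SE 0.17), and Xbp1, whose RNA it splices, by 0.14 (SE 0.24). Of 26 measured mucin glycosylation genes, 13 were above 0 and 13 below, with a median of -0.0076, and 0 passed. That median ran from -0.09 without wild type 6 to 0.05 without wild type 5. Galnt10, which starts O-glycans, differed by 0.47 (SE 0.15, limma adjusted p = 0.991), but its other probe sets by 0.06 and 0.81 with larger errors. Chst4, a sulfotransferase, differed by -0.38 (SE 0.15, limma adjusted p = 0.991).

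Transcription factors of the lineage did not pass either. Of 10 measured, 3 were above 0 and 7 below, and the median was -0.06, but 0.02 without wild type 5 and -0.20 without wild type 6. Atoh1, which sets the secretory fate, read 8.69, 8.81 and 8.39 in the knockouts and 8.65, 8.80 and 8.57 in wild type, a difference of -0.05 (SE 0.15). Spdef, which drives goblet cell maturation, read 8.001, 7.80 and 7.95 against 7.65, 8.61 and 7.52, with wild type 5 far above the rest, and differed by -0.01 (SE 0.29). Klf4, a zinc finger factor of goblet and surface cells, differed by -0.21 (SE 0.12) and -0.06 in its pair of probe sets. The 11 other goblet markers had a median of 0.05, with 8 above 0, 3 below and 0 passing. That median was -0.01 without knockout 1 or without wild type 6, 0.15 without wild type 5 and 0.08 without knockout 3 or wild type 4.

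**Figure D5:**
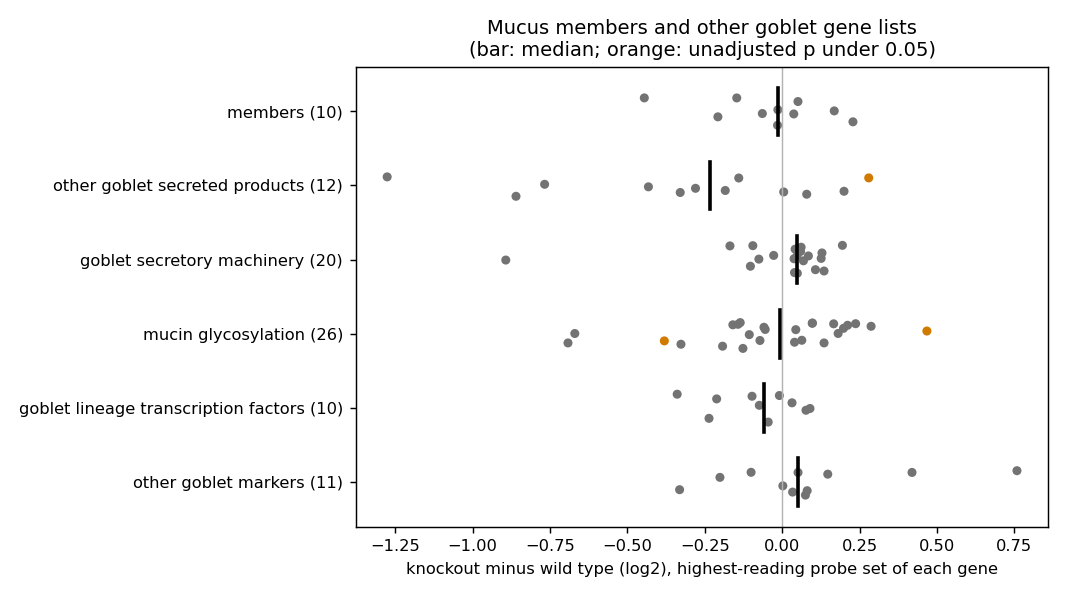
Knockout minus wild type (log2) of each gene, by its highest-reading probe set, for the mucus members and 5 other goblet gene lists; the number of measured genes stands in brackets and a bar marks the median. Medians run from -0.23 for other secreted products, where leaving out wild type 5 gives 0.00086, to 0.05 for other goblet markers, where leaving out wild type 6 gives -0.01, and the 3 orange genes (unadjusted p under 0.05) are Muc5ac, Galnt10 and Chst4.

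The median profile of the members was nearly flat, and several members lay far from it. The profile, the median over members of values centered on each gene's mean, was 0.10, 0.03 and -0.15 in the knockouts and 0.03, 0.06 and -0.0089 in wild type. Over the 6 arrays, 9086 genes brighter than the median gene were searched. Ist1, Kdm5c, Atg3, Ubl3 and Lpp were closest, with root mean square differences of 0.027 to 0.035. None of these is in a goblet list, but those lists hold only 79 measured genes, so that says little. Tff3 was the member nearest the profile (0.044), followed by Fcgbp (0.052) and Clca1 (0.061). Zg16 and Agr2 lay at 0.090, Muc2 at 0.12, Spink4 and Klk1 at 0.13, Reg4 at 0.18 and Retnlb farthest at 0.41. The profile is thus not one that all members share.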

How the data were processed

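Epithelium was shaken off the opened intestine after 1.5 to 2 hours in 3 mM EDTA and 0.05 mM DTT and was not sorted; pooled RNA (30 ng) was amplified before labeling (NuGEN WT-Ovation pico kit) and read on Affymetrix whole-genome mouse arrays, per the labels' protocols. The authors deposited RMA values, per the submitters' processing notes. The deposited values are on a log2 scale, as read from their span: they ran from 1.78 to 14.4, and array medians from 5.44 to 5.58. Detection calls and scan dates were not analysed here, so no background cut was made and no batch was tested. Arrays have no read depth, and their number, 3 per group, limits the precision.

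Of 45101 probe sets, 64 controls were left out, and 34958 had 1 symbol, 932 several and 9211 none in the platform annotation. All 10 members matched the RefSeq table of GRCm38.p6 by gene number, including Clca1, whose older names are used for other genes. Knockout was tested against wild type, two-sided and without covariates, by lmFit and eBayes of limma 3.58.1 (R 4.3.3), and SE is limma's standard error. The fit was run on simulated data with independent noise in each probe set and array. That checks the code and does not measure the power in these arrays. p-values measure the spread between pools.

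Members and lists were chosen with earlier results of these data known. Named were all members, up to 4 genes of each goblet list with an unadjusted p under 0.05, Spdef, Atoh1, Klf4, Ern2, Muc5b, Bcl9 and Bcl9l, and the 5 genes nearest the members' profile. Xbp1, Itln1, Ang4, Clps, Tpsg1, Retnla, Gcg, Guca2a, Cdx2, Trpm5, Pou2f3, Il25 and the pancreas markers were named after their values were seen. Alternatives were cyclic loess, array weights, a robust fit with an intensity trend, brighter probe sets only, no _x_at or _s_at probe sets, pool size as a covariate, 1 probe set per gene and leaving out each array.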

Additional observations from a re-analysis of the deposited data

How the results depend on the processing

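No member probe set was called under any alternative (smallest limma adjusted p = 0.882), and the members' median difference stayed within 1 SD of the members' level within groups (0.0947), from -0.07 over all member probe sets to 0.06 with pool size as a covariate. Over the array the count was 0 to 3 when single arrays were left out, and the 3 calls came without wild type 6. Of 198 member values under alternatives 183 kept their sign, and 15 in 7 probe sets did not; the cause was not tested. With pool size as a covariate, which sets knockout 1 alone against wild type, Tff3 was 0.15, Retnlb 0.056, the dimmer Clca1 probe set 0.15 and the dimmer Agr2 probe set -0.020. Array weights gave -0.017 for Fcgbp, and cyclic loess 0.0076 for the brighter Agr2 probe set. With single arrays left out, values ran from -0.099 to 0.085 for Tff3, -0.031 to 0.0019 and -0.050 to 0.051 for the brighter and dimmer Agr2 probe sets, -0.029 to 0.14 for Fcgbp and -0.034 to 0.13 for Muc2. No paired analysis was possible because the groups share no replicate numbers.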

Other observations

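Exocrine pancreas transcripts were read in some of the colon pools. Cpa1, a pancreatic carboxypeptidase, read 9.90 in wild type 5 and 7.41 in wild type 6, with no other array above 6.16. Ctrb1, chymotrypsinogen, read 11.69 and 9.80 there and at most 8.18 in the rest. Prss2, a trypsinogen, read 10.03 in wild type 5 and 7.27 in wild type 6. Cela1, an elastase on the same list, read 10.89 to 11.85 in all 6 arrays and was lowest in wild type 6. Retnla, a relative of Retnlb, read 7.85 in wild type 6 and 3.89 to 4.37 in the others. Wild type 6 is also the array in which B and plasma cell markers were highest. What brought these transcripts into the pools was not tested.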
